A study of Mus musculus with 6 samples.

Results

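The genes described here are 34 chaperones, folding enzymes, degradation factors, stress sensors and stress targets of the endoplasmic reticulum (ER), followed in RNA sequencing of mouse prefrontal cortex (PFC). They were chosen by name, from a list of the ER quality control system and the IRE1, ATF6 and PERK branches of the unfolded protein response. Earlier results of these data were known when the list was chosen. The members are 34 of the 54429 genes counted. All 34 were measured well enough to be tested. RNA came from bulk PFC of 6-month-old mice in 3 groups of 2: wild-type mice (C57BL/6 x C3H) given vehicle (WT), PS19(P301S) mice given vehicle (Tau), and PS19(P301S) mice given UNC0642 (Tau + UNC0642). UNC0642, an inhibitor of the histone methyltransferases EHMT1 and EHMT2, was injected intraperitoneally at 1 mg/kg once daily for 3 days, and vehicle was saline with a little DMSO. The PS19 transgene expresses human tau with the P301S mutation from the mouse prion protein (Prnp) promoter, so all Tau mice, treated or not, overexpress a mutant human protein. The comparisons ask how the genes differ between Tau and WT mice and whether the inhibitor changes them in Tau mice.

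Proteins that enter the secretory pathway fold in the ER lumen, where chaperones hold them, disulfide isomerases form their bonds, and failed products are sent back to the cytosol for degradation. When unfolded protein accumulates, IRE1 (encoded by Ern1) splices the Xbp1 mRNA, ATF6 is cleaved to an active transcription factor, and PERK (encoded by Eif2ak3) slows translation while raising ATF4 and then CHOP (encoded by Ddit3). ATF6 and spliced XBP1 are known to raise chaperone and degradation genes, whereas ATF4 and CHOP raise genes of amino acid metabolism and stress recovery. In neurons, which make large amounts of membrane and secreted protein, these pathways have been studied widely in tauopathy.

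A known binding site of ATF6 with the factor NF-Y is the ER stress element, spelled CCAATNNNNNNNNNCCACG. Its letters were searched on both strands of promoters reaching from 250 bases before to 50 bases after each transcription start (RefSeq, GRCm38.p6). Other spellings of the full site were not searched, so a gene without this match may hold another form. Of the 34 members, 30 had a promoter in the table, and 9 of these 30 held the element. Across all genes with a promoter, 37 of 27025 held it, or 0.137%. By role it was present in 6 of 9 lumenal chaperones and co-chaperones, 1 of 4 disulfide isomerases and 2 of 7 degradation and translocation genes, and in 0 of 5 sensors and transcription factors and 0 of 5 ATF4 and CHOP targets. The 10 matches are printed because they show the letters that these chaperone genes share, with both boxes in capitals and the free bases in lower case, read on the strand that holds the element.
Hspa5 element, chr2:34772025-34772043: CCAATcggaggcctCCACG
Calr element, chr8:84847075-84847093: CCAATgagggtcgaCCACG
Derl3 element, chr10:75893242-75893260: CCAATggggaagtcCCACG
Hsp90b1 element, chr10:86705638-86705656: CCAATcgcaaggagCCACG
Hsp90b1 element, chr10:86705533-86705551: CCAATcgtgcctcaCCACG
Canx element, chr11:50325800-50325818: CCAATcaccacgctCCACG
Pdia6 element, chr12:17266491-17266509: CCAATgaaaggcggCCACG
Dnajc3 element, chr14:118937827-118937845: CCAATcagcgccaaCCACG
Creld2 element, chr15:88819520-88819538: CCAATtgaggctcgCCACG
Syvn1 element, chr19:6046532-6046550: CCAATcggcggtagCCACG

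The promoter of Hspa5, on the plus strand at chr2:34771840-34772139, is printed because this gene had the smallest p-value of the members in each comparison. Its element lies 65 to 47 bases upstream of the RefSeq start. The Hspa5 span given below is from GENCODE and begins before the element. Calr (minus strand, chr8:84846882-84847181) and Pdia6 (plus strand, chr12:17266339-17266638) carry the element 162 to 144 and 98 to 80 bases upstream, in Calr on the opposite strand. Capitals mark the whole match.
Hspa5 promoter: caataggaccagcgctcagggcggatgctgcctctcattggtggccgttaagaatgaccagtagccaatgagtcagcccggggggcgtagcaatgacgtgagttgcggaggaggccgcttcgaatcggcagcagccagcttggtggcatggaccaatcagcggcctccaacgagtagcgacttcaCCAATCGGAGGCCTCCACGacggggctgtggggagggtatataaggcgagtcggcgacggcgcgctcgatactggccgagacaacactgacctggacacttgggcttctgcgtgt
Calr promoter: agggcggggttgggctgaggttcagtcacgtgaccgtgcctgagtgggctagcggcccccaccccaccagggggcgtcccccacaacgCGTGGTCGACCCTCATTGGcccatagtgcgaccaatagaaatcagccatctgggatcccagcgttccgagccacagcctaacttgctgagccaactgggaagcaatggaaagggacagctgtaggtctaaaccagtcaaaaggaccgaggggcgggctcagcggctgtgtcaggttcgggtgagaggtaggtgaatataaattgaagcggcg
Pdia6 promoter: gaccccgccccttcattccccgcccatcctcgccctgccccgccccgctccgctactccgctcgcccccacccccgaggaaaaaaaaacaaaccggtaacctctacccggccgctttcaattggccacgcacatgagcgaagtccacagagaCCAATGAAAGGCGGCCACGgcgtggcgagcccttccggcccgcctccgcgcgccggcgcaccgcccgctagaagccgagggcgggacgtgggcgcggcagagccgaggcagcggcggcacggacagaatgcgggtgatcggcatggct

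Binding of ATF4 with C/EBP factors was searched as the C/EBP-ATF element, TGATGNAA, which 4 of the 30 members (Asns, Chac1, Herpud1 and Trib3) and 4.51% of all genes held. The core of the UPR element, TGACGTGG, was in 0 of the 30 members and in 0.714% of all genes. The second box of the ER stress element alone, CCACG, which every full element contains, was in 24 of the 30 members and in 35.5% of all genes. Herpud1 (plus strand, chr8:94386179-94386478) is printed as the member with the C/EBP-ATF element that was also called higher in Tau mice, its match again in capitals and on the opposite strand. A match describes letters in a promoter and is not evidence that a factor was bound.
Herpud1 promoter: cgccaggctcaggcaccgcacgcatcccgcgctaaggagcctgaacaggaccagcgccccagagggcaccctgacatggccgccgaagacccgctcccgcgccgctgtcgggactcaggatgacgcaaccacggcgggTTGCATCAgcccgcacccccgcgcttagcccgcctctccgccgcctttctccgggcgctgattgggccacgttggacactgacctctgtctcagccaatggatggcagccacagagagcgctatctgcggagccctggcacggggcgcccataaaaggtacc

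**Figure D1:**
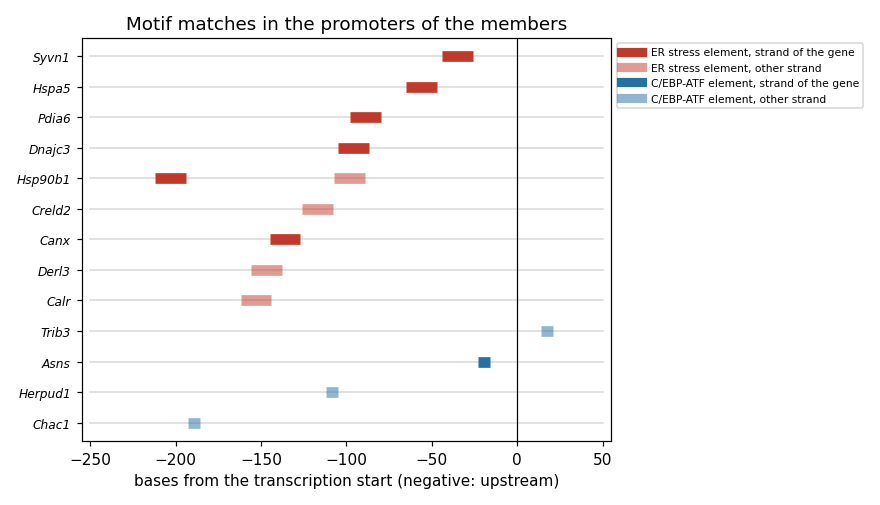
Position of the motif matches in 13 member promoters, on the horizontal axis in bases from the transcription start. Red bars are ER stress elements and blue bars C/EBP-ATF elements, pale where the match is on the strand opposite to the gene; the 10 ER stress elements end between 194 and 26 bases upstream.

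The libraries held 17005664 to 28972176 counts. Ehmt1 and Ehmt2, the targets of the inhibitor, overlapped between the groups. Prnp, whose promoter drives the transgene, was at 873 CPM (counts scaled to the size and composition of the library) in WT replicate 2 and between 1470.3 and 1694 CPM with the transgene, but at 1652 CPM in the library labelled WT replicate 1. Mapt, the mouse tau gene, was at 449 CPM in WT replicate 2, 570.5 to 614 CPM with the transgene and 576 CPM in the library labelled WT replicate 1. Xist and Ddx3y showed the female pattern in WT replicate 2 and both Tau libraries and the male pattern in the library labelled WT replicate 1 and both Tau + UNC0642 libraries, so that sex and treatment cannot be told apart between Tau and Tau + UNC0642. The summed level of 10 neuronal markers ranged from 8122 to 8973 CPM over the 6 libraries. Tau replicate 2 stood apart with 5655 CPM for 10 oligodendrocyte markers against 1505 to 3031 CPM in the other libraries, and with 204 CPM for 5 striatal markers against 78.5 to 95.5 CPM. Endothelial markers summed to 257 and 269.7 CPM in WT, 197 and 213 CPM in Tau and 194 and 248 CPM in Tau + UNC0642, and no gene of these marker sets was at 0 in every library. In bulk tissue, fewer cells of a type and less RNA per cell cannot be told apart.

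Chaperones and folding enzymes of the ER made up most of the members called higher in Tau than in WT mice. Genes were called at an unadjusted p-value under 0.05 with a fold change of at least 1.2, the threshold of the study, in edgeR's quasi-likelihood test. By this rule 10 of the 34 members rose (Hspa5, Sdf2l1, Dnajc3, Dnajb9, Manf, Calr, Pdia4, Pdia6, Herpud1 and Xbp1), where 3.72% of all 20409 genes tested were called higher, and 0 fell, where 6.1% of all genes were called lower. Both Tau libraries were above both WT libraries for 20 members, against 21.9% of all genes, and below them for 1 member (Derl3), against 21.4% of all genes. The median log2 fold change was 0.16 over the 34 members and 0.00 over all genes. With edgeR's p-values adjusted by Benjamini-Hochberg over all genes, 0 of the 34 members stayed below 0.05, the smallest being 0.113 for Hspa5, so that each call rests on the unadjusted rule. Without that fold minimum, 14 members passed at the unadjusted p-value.

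Calls depended on the library labelled WT replicate 1, whose Prnp level was that of a transgenic mouse. Without it 7 members were called higher in Tau mice: Calr, Pdia6, Dnajb9 and Xbp1 were no longer called and Dnajb11, a co-chaperone of BiP, was. The median of the members was then 0.18. A term for the female pattern gives the same contrast, as that library is the male one of the 4 WT and Tau libraries, and is no separate check. Without Tau replicate 2, the library rich in oligodendrocyte and striatal RNA, 9 members were called (Dnajb9 was not) and the median was 0.21. Of the markers, 4 of 10 for oligodendrocytes and 2 of 10 each for astrocytes and microglia were called higher in Tau against WT. All 5 striatal markers were too, where 3.72% of all genes were called higher. Called lower were 5 of 10 for endothelial cells and 4 of 9 for meningeal fibroblasts, where 6.1% of all genes were. Of 4 choroid plexus markers tested, 1 was called higher and 1 lower, and of 10 neuronal markers 0 were called. Microglial markers summed to 329 and 362 CPM in WT, 399 and 404 CPM in Tau and 376 and 358 CPM in Tau + UNC0642 libraries, with a median log2 fold change of 0.21 in Tau against WT. Meningeal markers summed to 65.8 and 99.4, 64.7 and 46.5, and 69.5 and 67.8 CPM, with a median of -0.62. The part of these markers in the members' differences was not tested.

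Between Tau + UNC0642 and Tau mice, 1 member, Hspa5, rose further, where 3.73% of all genes were called higher, and 0 fell, where 3.95% of all genes were called lower. Both Tau + UNC0642 libraries lay above both Tau libraries for 15 members (20.4% of all genes) and below them for 5 (20.9% of all genes), and the median was 0.06 against 0.00 over all genes. The smallest adjusted p-value among the members was 0.327, for Hspa5, in edgeR's quasi-likelihood test. Its call was lost without Tau + UNC0642 replicate 2, when 0 members were called. With library size in place of TMM scaling 3 members were called higher (Hspa5, Pdia6 and Sec61b), and with a term for the female pattern 4 (Hspa5, Pdia6, Sdf2l1 and Xbp1). That term rests on the difference between the 2 libraries labelled WT alone, since treated and untreated Tau mice differed in sex throughout.

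Against WT mice, Tau + UNC0642 mice had 13 members called higher, where 3.77% of all genes were, and 1 called lower, where 5.69% of all genes were. These 13 were Hspa5, Sdf2l1, Dnajc3, Manf, Calr, Creld2, Dnajb11, Pdia3, Pdia4, Pdia6, Herpud1, Derl2 and Xbp1, and the gene called lower was Ppp1r15a. Both treated libraries lay above both WT libraries for 23 members (22.1% of all genes) and below them for 2 (22.3% of all genes). The median was 0.21 over the members and -0.01 over all genes. Hspa5 (adjusted p = 0.00531) and Pdia6 (adjusted p = 0.0225) also passed edgeR's quasi-likelihood test after Benjamini-Hochberg adjustment over all genes. Neither gene passed after adjustment in every one of the 15 alternative fits. Over these fits the log2 fold change ranged from 0.63 to 0.78 for Hspa5 and from 0.50 to 0.60 for Pdia6. Without Tau + UNC0642 replicate 2, 9 members were called higher. As the 3 comparisons share libraries, their counts are not independent.

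**Figure D2:**
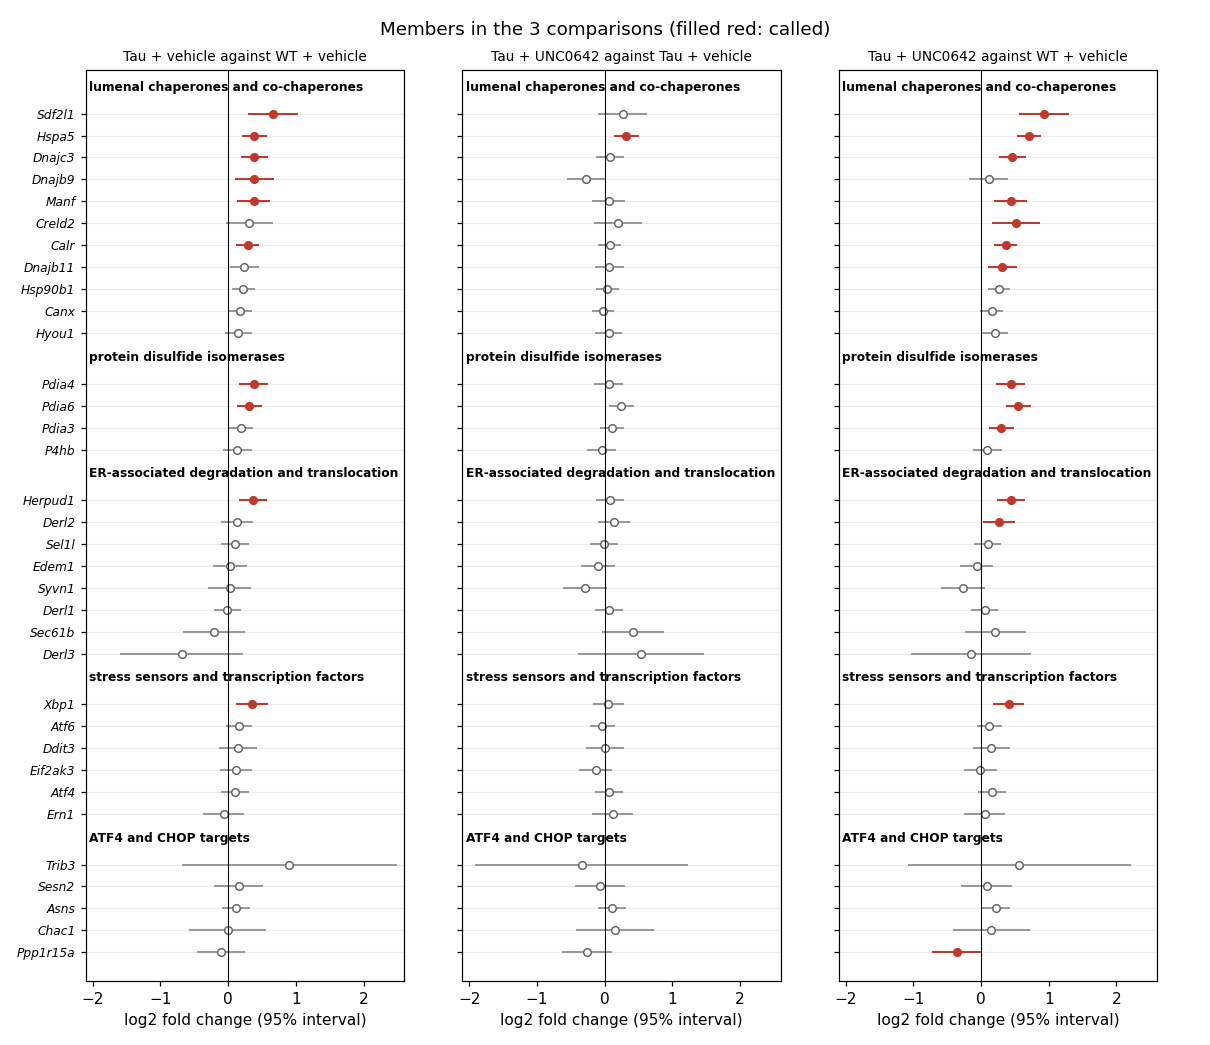
Log2 fold changes of the 34 members (points) with 95% intervals (bars) from edgeR in the 3 comparisons, ordered within role groups by the first comparison; filled red points were called. The calls lie mainly among chaperones and disulfide isomerases: 10 in the first panel, 1 in the second and 14 in the third.

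Summed over all 34 members, the level was 3522 ± 11.5 CPM in WT, 4103 ± 8.98 CPM in Tau and 4303 ± 97.2 CPM in Tau + UNC0642 mice (mean ± SD, n = 2), 16.5% higher in Tau than in WT and 4.87% higher in Tau + UNC0642 than in Tau. Chaperones supplied most of this sum, at 2039 ± 10.01, 2440.3 ± 34.3 and 2587 ± 63.5 CPM (SD, n = 2). Per kilobase of annotated exon, over the 33 members with a length, Canx (152 CPM per kb), Calr (132), Hspa5 (105) and Hsp90b1 (91.6) were the most abundant and Trib3 (0.193) and Derl3 (0.624) the least.

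Lumenal chaperones and co-chaperones were the group with the most calls. Of 11 members, 6 rose in Tau against WT, 1 in Tau + UNC0642 against Tau and 7 in Tau + UNC0642 against WT. Their median log2 fold changes were 0.31, 0.07 and 0.37. For this and the role groups below, the shares of all genes called higher were 3.72%, 3.73% and 3.77% in these comparisons. Those called lower were 6.1%, 3.95% and 5.69%. The difference between Tau and WT was above 0 for all 11.

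Hspa5 (chr2:34771970-34777547, GRCm38) encodes BiP, the ER member of the HSP70 chaperones, which binds unfolded chains and holds the stress sensors inactive. It had 341 and 337 CPM in the WT libraries, 438 and 448 CPM in the Tau libraries and 527 and 579.8 CPM in the Tau + UNC0642 libraries. The 3 groups did not overlap, in the order WT, Tau, Tau + UNC0642, an order whose share over all genes was not counted. In Tau mice it was 30.6% higher than in WT (log2 fold change 0.39, SE 0.0750, edgeR adjusted p = 0.113), in treated Tau mice 24.99% higher than in Tau (0.32, SE 0.0749, adjusted p = 0.327) and 63.2% higher than in WT (0.71, SE 0.0752, adjusted p = 0.00531). Without the library labelled WT replicate 1 the value against WT was 0.39 for Tau and 0.72 for treated Tau mice.

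Sdf2l1, which works in a complex with BiP and its co-chaperones, had the widest relative change among the called members. Its level was 7.65 and 9.999 CPM in WT, 13.4 and 14.7 CPM in Tau and 17.5 and 16.3 CPM in Tau + UNC0642 libraries, again without overlap. The log2 fold change was 0.67 for Tau against WT (SE 0.159), 0.27 for treated against untreated Tau (95% interval -0.08 to 0.61) and 0.94 for treated Tau against WT (SE 0.159, edgeR adjusted p = 0.0529). Without the library labelled WT replicate 1 the first was 0.48 and the third 0.75.

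Dnajc3, a J-domain co-chaperone of BiP that also restrains PERK, was at 92.5 and 92.2 CPM in WT, 113 and 129 CPM in Tau and 128 and 127 CPM in Tau + UNC0642 libraries. Manf, a secreted and ER-resident neurotrophic factor that binds BiP, was at 36.0 and 38.5, 44.8 and 52.0, and 50.6 and 50.3 CPM in the same order. For both genes all 4 Tau libraries lay above both WT libraries, and treated and untreated Tau libraries overlapped. Dnajc3 and Manf rose by 0.38 each in Tau against WT on the log2 scale (SE 0.0840 and 0.102), and treated and untreated Tau mice differed by 0.08 (95% interval -0.11 to 0.26) and 0.06 (-0.16 to 0.29). Exons of Manf share 146 bases with Dcaf1 on the opposite strand, and since the strand setting of the counting is not given in the sources used here, reads there cannot be told apart.

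Dnajb9, a BiP co-chaperone that keeps IRE1 inactive, was the called chaperone with a negative value after treatment. The study itself lists it with the genes that were raised in Tau mice and reversed by the inhibitor. It was at 26.9 and 29.5 CPM in WT, 33.5 and 40.2 CPM in Tau and 32.3 and 28.6 CPM in Tau + UNC0642 libraries. Both Tau libraries were above all the others, with no overlap. The log2 fold change was 0.38 for Tau against WT (SE 0.123, called), -0.27 for treated against untreated Tau (SE 0.124, not called) and 0.11 for treated Tau against WT (95% interval -0.16 to 0.39). The second was called in 5 of 15 alternative settings. The first was no longer called without Tau replicate 2 or the library labelled WT replicate 1, nor with a term for the female pattern, which is the latter contrast again.

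Calr and Canx, the soluble and the membrane-bound lectin chaperones that bind glycoproteins, moved by different amounts. Calr had 317 and 334 CPM in WT, 395 and 400.0 CPM in Tau and 414 and 424 CPM in Tau + UNC0642 libraries, in 3 groups that did not overlap. It rose by 0.29 in Tau (SE 0.0703) and by 0.37 in treated Tau mice (SE 0.0703), both against WT. Canx had 654 and 665, 739 and 757, and 729 and 740.3 CPM, a log2 fold change of 0.18 in Tau (95% interval 0.03 to 0.33) and 0.16 in treated Tau mice against WT, which was under the fold minimum. Hsp90b1, the ER form of HSP90, was also under it, with 334 and 324 CPM in WT, 380.1 and 388 CPM in Tau and 392.2 and 397 CPM in Tau + UNC0642 libraries.

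Of the remaining chaperones, Creld2, an ER-resident protein with EGF-like domains, rose by 0.51 in treated Tau mice against WT (SE 0.153), from 9.22 and 11.5 CPM in WT to 14.1 and 15.5 CPM, with 13.2 and 12.6 CPM in untreated Tau mice between them. Dnajb11, a BiP co-chaperone, rose by 0.31 (SE 0.0898), from 55.3 and 51.6 CPM in WT to 63.1 and 69.4 CPM, and was at 63.6 and 62.7 CPM in Tau mice. The calls of both were lost without Tau + UNC0642 replicate 2. That of Creld2 was also lost without the library labelled WT replicate 1, and that of Dnajb11 without WT replicate 2. A term for the female pattern lost the Dnajb11 call too, but is no separate check here. As both treated libraries were male, it leaves only the male library labelled WT replicate 1 as the WT side. Hyou1, a nucleotide exchange factor for BiP, was not called, at 158 and 153 CPM in WT, 183 and 162 CPM in Tau and 175 and 184 CPM in Tau + UNC0642 libraries.

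**Figure D3:**
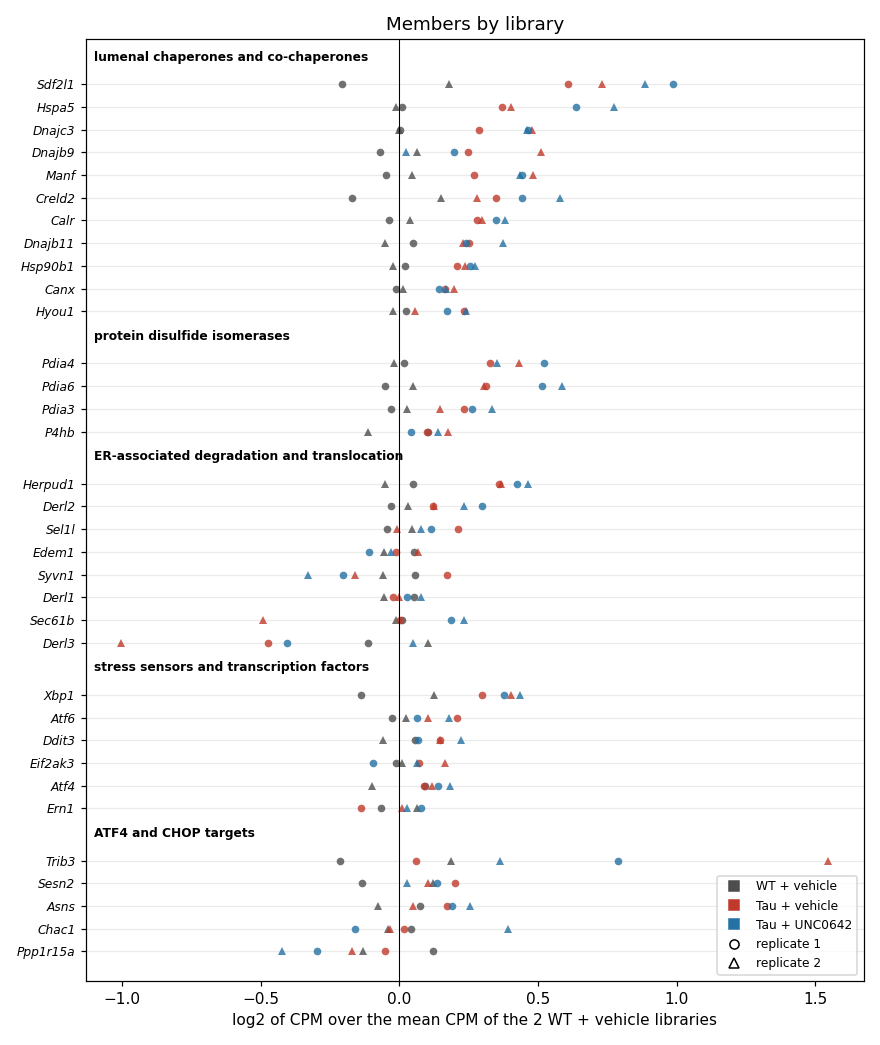
Level of each member in each library (points) as the log2 of its CPM over the mean of both WT libraries, by role group; circles are replicate 1 and triangles replicate 2, grey WT, red Tau and blue Tau + UNC0642. In the chaperone group all Tau and Tau + UNC0642 points lie above 0, whereas ATF4 and CHOP targets scatter on both sides.

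Protein disulfide isomerases, which make and rearrange disulfide bonds, included 2 of 4 members called higher in Tau, 0 in treated against untreated Tau and 3 in treated Tau mice against WT. Their median log2 fold changes were 0.25, 0.08 and 0.37. Summed, they reached 453 ± 2.9, 533 ± 0.188 and 572 ± 11.96 CPM in WT, Tau and Tau + UNC0642 mice (SD, n = 2).

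Pdia6 (chr12:17266545-17284770, GRCm38), an isomerase that also acts on IRE1 and PERK, was at 105 and 112 CPM in WT, 135 and 134 CPM in Tau and 155 and 163 CPM in Tau + UNC0642 libraries. Its groups were ordered as those of Hspa5, with no overlap. The log2 fold change was 0.31 for Tau against WT (SE 0.0763), 0.24 for treated against untreated Tau (SE 0.0762, edgeR adjusted p = 0.432), which was under the fold minimum, and 0.55 for treated Tau against WT (SE 0.0764, adjusted p = 0.0225). Without the library labelled WT replicate 1 the first was 0.26 and not called, and the third 0.50 and called.

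Pdia4 had 60.9 and 59.4 CPM in WT, 75.4 and 81.1 CPM in Tau and 86.4 and 76.8 CPM in Tau + UNC0642 libraries, and rose by 0.38 in Tau against WT (SE 0.0906). All 4 Tau libraries lay above WT, while treated and untreated ones overlapped. Pdia3, the partner of Calr and Canx in glycoprotein folding, had 168 and 175, 202 and 189.7, and 206 and 216 CPM, and was called in treated Tau mice against WT (0.30, SE 0.0746) but not in Tau against WT (0.19, 95% interval 0.03 to 0.36). That call was lost without Tau + UNC0642 replicate 2. P4hb, the founding isomerase of the family, overlapped in all 3 comparisons, at 105 to 128 CPM.

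**Figure D4:**
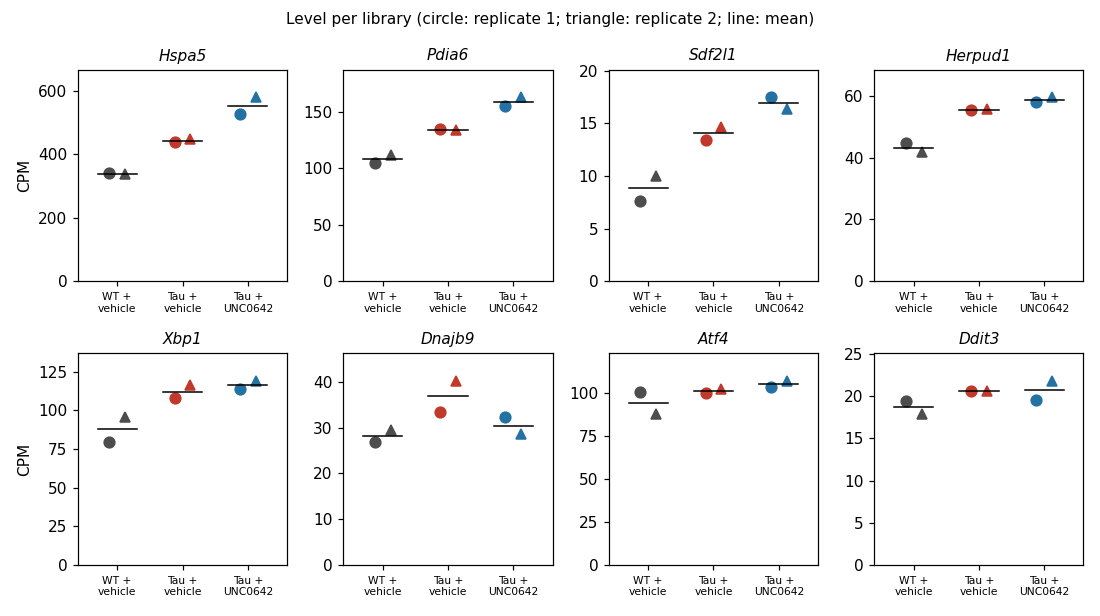
Level of 8 members in CPM per library, with the mean of each group as a line and axes starting at 0. Hspa5, Pdia6 and Sdf2l1 are ordered WT, Tau, Tau + UNC0642, but from Tau to Tau + UNC0642, groups that differ in sex, only Hspa5 was called. Dnajb9 is highest in both Tau libraries, and Atf4 and Ddit3 stay within 88.0 to 107 CPM and 17.9 to 21.8 CPM.

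Few genes of ER-associated degradation and translocation were called. Of 8 members, 1 (Herpud1) rose in Tau against WT, 0 were called in treated against untreated Tau, and 2 (Herpud1 and Derl2) rose in treated Tau against WT. The median log2 fold changes were 0.02, 0.07 and 0.07, with ranges of -0.69 to 0.36, -0.29 to 0.54 and -0.27 to 0.44. Both treated libraries lay above both Tau libraries for Herpud1, Derl1, Derl2, Derl3 and Sec61b (20.4% of all genes). They lay below both Tau libraries for Syvn1 and Edem1 (20.9% of all genes).

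Herpud1 (chr8:94386438-94395377, GRCm38), a membrane protein that assembles the degradation complex, was at 44.7 and 41.8 CPM in WT, 55.5 and 55.7 CPM in Tau and 58.1 and 59.6 CPM in Tau + UNC0642 libraries. The groups did not overlap. It rose by 0.36 in Tau (SE 0.0878) and by 0.44 in treated Tau mice (SE 0.0880, edgeR adjusted p = 0.0912) against WT, and the value of treated against untreated Tau was 0.08 (95% interval -0.11 to 0.28).

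Derl2, a derlin of the export channel, rose by 0.27 in treated Tau mice against WT (SE 0.0996), from 27.8 and 28.9 CPM to 34.8 and 33.3 CPM, with 30.9 CPM in both Tau libraries. The call held in 8 of 15 alternative settings, and 231 bases of its exons are shared with Mis12 on the opposite strand. Its relative Derl1 ranged from 59.9 to 65.7 CPM. Derl3 had only 13 to 41 counts per library, and its value of -0.69 in Tau against WT had a 95% interval of -1.58 to 0.20.

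Syvn1 and Sel1l, the ubiquitin ligase of the pathway and its partner, were not called in any comparison, with 15.3 to 21.7 CPM and 267 to 319 CPM over the 6 libraries, and Syvn1 shares 91 exon bases with Mrpl49 on the opposite strand. Both treated libraries had less Syvn1 (16.7 and 15.3 CPM) than both Tau libraries (21.7 and 17.2 CPM) and both WT libraries (20.0 and 18.5 CPM), at a log2 fold change of -0.29 against Tau (95% interval -0.60 to 0.02). Edem1, which recognises trimmed glycans on misfolded protein, ranged from 26.6 to 30.1 CPM. Sec61b, a subunit of the protein-conducting channel, was lowest in Tau replicate 2, at 5.15 CPM, and ranged from 7.19 to 8.51 CPM in the others.

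Among the 6 sensors and transcription factors, 1 (Xbp1) rose in Tau and in treated Tau mice against WT, and 0 were called between treated and untreated Tau. The median log2 fold changes were 0.13, 0.03 and 0.14. Xbp1, the factor activated by IRE1, was at 79.9 and 95.9 CPM in WT, 108 and 116 CPM in Tau and 114 and 119 CPM in Tau + UNC0642 libraries. Both WT libraries lay below all others. The log2 fold change was 0.35 for Tau (SE 0.0978) and 0.41 for treated Tau (SE 0.0979) against WT, and 0.22 and 0.28 without the library labelled WT replicate 1, the first of which was not called. Counts per gene do not separate the spliced from the unspliced Xbp1 mRNA.

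The 3 sensors themselves were not called. Ern1 was at 14.5 and 15.9 CPM in WT, 13.8 and 15.3 CPM in Tau and 16.0 and 15.5 CPM in Tau + UNC0642 libraries, and Eif2ak3 ranged from 32.4 to 38.8 CPM. Atf6 was at 180.5 and 187 CPM in WT, 212 and 198 CPM in Tau and 192 and 208 CPM in Tau + UNC0642 libraries, above WT in all 4 Tau libraries but with a log2 fold change of 0.16 (95% interval -0.02 to 0.33) in Tau. Sensors are controlled largely after transcription, so RNA levels do not report their activity.

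Atf4 and Ddit3, the transcription factors of the PERK branch, were not called in any comparison. Atf4 was at 101 and 88.0 CPM in WT, 100.3 and 102 CPM in Tau and 104 and 107 CPM in Tau + UNC0642 libraries, and its WT and Tau libraries overlapped. Ddit3 was at 19.4 and 17.9, 20.7 and 20.7, and 19.6 and 21.8 CPM. The log2 fold changes in Tau against WT were 0.10 for Atf4 (95% interval -0.09 to 0.29) and 0.15 for Ddit3 (-0.11 to 0.41). Ddit3 shares 68 exon bases with Mars on the opposite strand.

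None of the 5 ATF4 and CHOP targets was called in Tau against WT or in treated against untreated Tau, and 1, Ppp1r15a, was called lower in treated Tau mice against WT. Median log2 fold changes were 0.11, -0.07 and 0.15. Ppp1r15a, the phosphatase subunit that ends translational arrest, was at 12.7 and 10.7 CPM in WT, 11.3 and 10.4 CPM in Tau and 9.53 and 8.73 CPM in Tau + UNC0642 libraries. The treated libraries were the lowest, at -0.36 against WT (SE 0.158, edgeR adjusted p = 0.398), and the call was lost in 8 of 15 alternative settings. Asns, asparagine synthetase, was at 109 and 98.4, 117 and 108, and 118 and 124 CPM. Sesn2, a sestrin that restrains growth signalling, ranged from 8.59 to 10.8 CPM and Chac1, which breaks down glutathione, from 3.67 to 5.38 CPM. Trib3, a pseudokinase that binds ATF4, had 6 to 14 counts per library, too few for its value of 0.90 (95% interval -0.67 to 2.48) to show a difference.

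Of 134 other genes of these pathways, listed in 6 groups, 8 rose and 2 fell in Tau against WT, 2 rose and 3 fell in treated against untreated Tau, and 9 rose and 2 fell in treated Tau against WT. The shares called higher were 5.97%, 1.49% and 6.72% and those called lower 1.49%, 2.24% and 1.49% in the 3 comparisons, against 3.72%, 3.73% and 3.77% and 6.1%, 3.95% and 5.69% of all genes. Their median log2 fold changes were 0.09, -0.02 and 0.05, and 0 had an edgeR adjusted p-value under 0.05. In the glycosylation group of 18 genes, 0 were called in Tau and 4 (Ostc, Ddost, Rpn1 and Stt3b, all of the oligosaccharyltransferase that attaches glycans in the ER) rose in treated Tau mice against WT. Rpn1 was at 141 and 139 CPM in WT, 164 and 153 CPM in Tau and 173 and 171 CPM in Tau + UNC0642 libraries, and Ddost at 69.3 and 66.5, 76.6 and 75.002, and 84.1 and 83.1 CPM. Both formed 3 groups without overlap. Their log2 fold changes in treated Tau mice against WT were 0.29 (SE 0.0742) and 0.30 (SE 0.0796).

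Among 35 other ATF4 and integrated stress response targets, 4 (Wars, Ddit4, Slc7a1 and Psph) rose and 1 (Slc1a5) fell in Tau against WT. Wars, a tRNA synthetase, was at 62.4 and 72.4 CPM in WT, 93.5 and 84.2 CPM in Tau and 73.1 and 82.6 CPM in Tau + UNC0642 libraries, with a log2 fold change of 0.40 in Tau against WT (SE 0.104). Ddit4, an inhibitor of growth signalling, was at 25.9 and 20.7, 29.9 and 35.7, and 27.9 and 29.9 CPM, with 0.49 (SE 0.137). Slc7a1, a transporter of basic amino acids, is in the study's list of genes raised in Tau mice and reversed by the inhibitor. It was at 47.0 and 46.6, 57.2 and 56.3, and 48.1 and 45.0 CPM. In treated against untreated Tau it fell by 0.29 on the log2 scale (SE 0.0886), a call that held in 12 of 15 alternative settings. Slc7a11, the cystine transporter, rose by 0.34 in that comparison (SE 0.106), from 118 and 108 CPM to 144 and 141 CPM, and was at 119 and 149 CPM in WT. Slc1a5 and Atf5 were lower in treated Tau mice than in WT, at -1.19 (SE 0.438) and -1.10 (SE 0.324), and both calls were lost without the library labelled WT replicate 1, the highest library for both, that of Slc1a5 also without Tau + UNC0642 replicate 1 and that of Atf5 also without replicate 2. That library was at 3.63 CPM for Slc1a5 against 0.829 to 2.11 CPM elsewhere and at 13.6 CPM for Atf5 against 4.06 to 7.73 CPM elsewhere.

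Outside these groups, Tram2 of the translocon fell in Tau against WT, from 1.18 and 1.41 CPM to 0.536 and 0.573 CPM, on 10 to 36 counts per library. Srprb, a subunit of the receptor for the signal recognition particle, rose in treated against untreated Tau, from 13.6 and 12.8 CPM to 16.6 and 16.0 CPM. Cnpy2, an ER protein of the saposin-like canopy family, fell in the same comparison, from 24.1 and 23.6 CPM to 19.4 and 19.2 CPM. Treated and untreated Tau libraries did not overlap for Srprb and Cnpy2, which were picked as called in that comparison. Over all genes, both treated libraries lay above both untreated ones for 20.4% and below them for 20.9%. The call of Srprb held in 7 of 15 alternative settings, with log2 fold changes from 0.14 to 0.35, and those of Tram2 and Cnpy2 in 11 of 15 each.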

How the data were processed

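Total RNA from PFC of biological duplicates was depleted of ribosomal RNA, made into strand-specific libraries (TruSeq) and sequenced on an Illumina HiSeq. By the study's methods, adapters were removed with Cutadapt before alignment by TopHat2, and the submitters' processing notes name mm10, SAMtools, featureCounts and edgeR. Versions and the strand setting are not given in the sources used here. The deposited values were raw read counts per gene, and Cutadapt, TopHat2 and featureCounts settings decide how reads of overlapping genes were counted.

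Counts were tested in edgeR 4.0.16 (R 4.3.3) with the quasi-likelihood test, TMM scaling, filterByExpr (minimum count 10, minimum total 15) and a mean per group over all 6 libraries, which left 20409 genes and 3 residual degrees of freedom. CPM were scaled by the TMM factors (0.966 to 1.04). Called genes had a fold change of 1.2 or more at an unadjusted p-value under 0.05, and adjusted p-values are Benjamini-Hochberg over all genes tested. The fit was tested on simulated counts. In 2 files, 26 gene names that had become dates were joined by position. The 2 libraries of each group differed by more than sampling noise. Symbols were matched to GENCODE M21 (33 of 34 members), and Ddit3 matched more than 1 gene and has no length here. No member had a transcript of another gene at 95% identity over 300 bases (blastn 2.17.0), and 11 members shared exon bases with another gene. Promoters came from RefSeq GRCm38.p6 and were not given for Hyou1, Manf, Derl1 and Atf6.

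Members and gene lists were chosen with earlier results of these data known. All members are named, and of the other pathway genes the 2 called at the smallest p-value, per comparison and direction. Slc7a1 in Tau against WT, Psph, Ostc, Stt3b and the promoters printed were chosen after their values were seen. Alternatives were other scalings (DESeq2 1.42.0 size factors, library size), filters, the DESeq2 Wald test, limma-voom (limma 3.58.1), 2-group fits, a replicate block, a term for the female pattern, other thresholds and fits without each library. Replicate numbers did not pair the libraries.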

Additional observations from a re-analysis of the deposited data

How the results depend on the processing

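With 2 libraries a group, intervals are wide and calls rest on unadjusted p-values. For the 25 named log2 fold changes of members, no alternative turned the direction, and 6 members called in Tau against WT (Hspa5, Dnajc3, Herpud1, Manf, Pdia4 and Sdf2l1) kept their call in all 15 alternative fits. In Tau against WT, 0 members passed at an adjusted p-value under 0.05 and 1 (Sdf2l1) at a fold of 1.5, against 10 called. The median of 0.16 was 0.087 with library size alone, which also moved the median of all genes to -0.07 and left Calr and Pdia6 uncalled, 0.13 with at least 10 counts in every library, 0.18 with a term for the female pattern (the contrast without the library labelled WT replicate 1), and 0.15 to 0.21 without each library in turn. In treated against untreated Tau, where 1 member was called, 3 were with library size alone, 2 with no filter, 4 with the female term, 2 with no fold minimum, 0 with adjusted p-values, 0 at a fold of 1.5 and 0 to 3 without each library, and the median of 0.06 was 0.091 with library size, 0.040 with the female term and 0.033 to 0.082 without each library. In treated Tau against WT, where 14 were called, 2 were with adjusted p-values, 2 at a fold of 1.5 and 9 to 13 without each library, and the median of 0.21 was 0.17 with library size and 0.19 to 0.24 without each library. Hspa5 and Pdia6, which passed with adjusted p-values in treated Tau against WT, did not do so in every alternative fit. The causes were not tested. Among the named genes outside the members, 12 values had the same sign in all alternatives. The replicate block changed no call (10, 1 and 14 members called), and same-numbered libraries did not deviate together (r over genes of -0.05, -0.03 and -0.01), so the numbers do not pair the libraries. Depth limits Trib3 and Derl3, with 6 to 14 and 13 to 41 counts.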

Other observations

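The ER stress element was also in the promoters of 28 genes that are not members, and these were looked at after the members' values were seen. Of the 28, 12 were expressed enough to be tested, and 0 of them belong to the other pathway lists. In Tau against WT, 1 of the 12 (Hnrnpa3, an RNA-binding protein) was called higher and 3 (Pan2, Acacb and Xlr3b) lower, and 4 of 12 were above 0. The median log2 fold change of the 12 was -0.46. It was -0.89 over the 5 genes with a mean under 2 CPM and -0.0028 over the other 7. Of those 7, 3 were above 0, with 1 called higher and 2 lower. In treated against untreated Tau the median of those 7 was 0.03, with 0 called higher and 1 lower, and in treated Tau against WT it was -0.24, with 0 called higher and 1 lower. Hnrnpa3 was at 49.6 and 41.9 CPM in WT, 62.0 and 55.9 CPM in Tau and 42.5 and 34.5 CPM in Tau + UNC0642 libraries. It was called lower in treated than in untreated Tau mice (log2 fold change -0.62, SE 0.126, edgeR adjusted p = 0.255). The study already places Hnrnpa3 among the genes raised in Tau mice and reversed by the inhibitor. Pan2, a subunit of a deadenylase, was at 16.4 and 15.2 CPM in WT, 11.6 and 11.8 CPM in Tau and 10.7 and 12.4 CPM in Tau + UNC0642 libraries.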
